A study of Gracilariopsis lemaneiformis with 12 samples.

Results

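In Gracilariopsis lemaneiformis, a red seaweed grown for its agar, 38 loci were higher in indole-3-acetic acid (IAA)-treated than in untreated tissue at day 1 and lower than in untreated tissue at day 3. A locus is either a single assembled sequence, whose ID begins with Unigene, or the sum of all contigs whose IDs share a cluster number after CL. The whole table held 25766 loci, made of 23287 Unigenes and 2479 clusters. The 38 loci were chosen on their levels in FPKM (fragment counts per length of sequence and per size of library). The highest group mean had to reach 5 FPKM. On the log2(group mean + 1) scale, IAA minus control had to be at least 0.3 at day 1 and at most -0.3 at day 3. Every IAA library also had to lie above every control at day 1 and below every control at day 3. Of the 25766 loci, 5512 reached the level of 5 FPKM, and the 38 were 0.689% of these.

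IAA is the auxin that land plants mostly use. In them it acts through a receptor that leads to the breakdown of transcriptional repressors, so that early response genes rise quickly, and products of some of these genes act back on auxin signalling and lower the free hormone. Red algae also contain IAA and respond to it in growth and branching, but the steps between the hormone and gene expression are less well described in them than in land plants. The files used here give IDs without gene names, annotation or letters of sequence. No role or pathway can therefore be given for any of the 38 loci, no pathway list could be applied, and only a few are named.

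The libraries fell into 4 groups of 3: tissue treated with 100 µM IAA at day 3, untreated controls at day 3, tissue treated with 100 µM IAA at day 1, and untreated controls at day 1. All 12 came from strain 981 and carry the tissue label rhizoids, which could not be checked against marker genes because no gene is named. The series' design text also speaks of branches, possibly as the material of one of the days, so day and tissue cannot be told apart. The labels do not say whether replicates were separate cultures, and the p-values cover only library-to-library spread, which may be technical. These are bulk samples, in which fewer cells of a type and less RNA per cell cannot be told apart.

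Summed FPKM per library lay between 291205 and 308835. Relative depth was estimated from 2050 low Unigenes whose values step roughly with single reads. It lay between 0.980 and 1.02 of the average library. There, 1 read was worth a median of about 0.270 FPKM. The stepping was imperfect, with 72.5% of 10904 low values within 0.1 of a whole multiple of 1 read, so both figures are approximate. Absolute depth is unknown. Pearson's r across the 11042 loci with a mean of at least 1 FPKM lay between 0.990 and 0.993 for the 12 within-group pairs of libraries and between 0.963 and 0.985 for the 54 between-group pairs, where loci are not independent replicates.

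The day 3 limits were met by 218 of the 5512 loci (3.96%) and the day 1 limits by 331 (6.01%). The 38 that met both made up 17.4% of the 218 and 11.5% of the 331. The reverse course, lower with IAA at day 1 and higher at day 3 by the same limits, was met by 107 loci (1.94%). That balance rested on the scaling of the libraries. With median-of-ratios size factors 194 loci had the course of the 38, all 38 among them, and 16 the reverse. After quantile normalization the numbers were 69, with 37 of the 38 among them, and 42. The reverse course stayed the more frequent under the remaining scalings. Rescaled to a common sum, 51 loci had the course of the 38, all 38 among them, and 88 the reverse. Scaled to abundant loci, the numbers were 37, with 35 of the 38 among them, and 91. The 38 loci kept both directions with no overlap of libraries under each of the 4 other scalings tried, although not all still reached the limits on size.

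**Figure D1:**
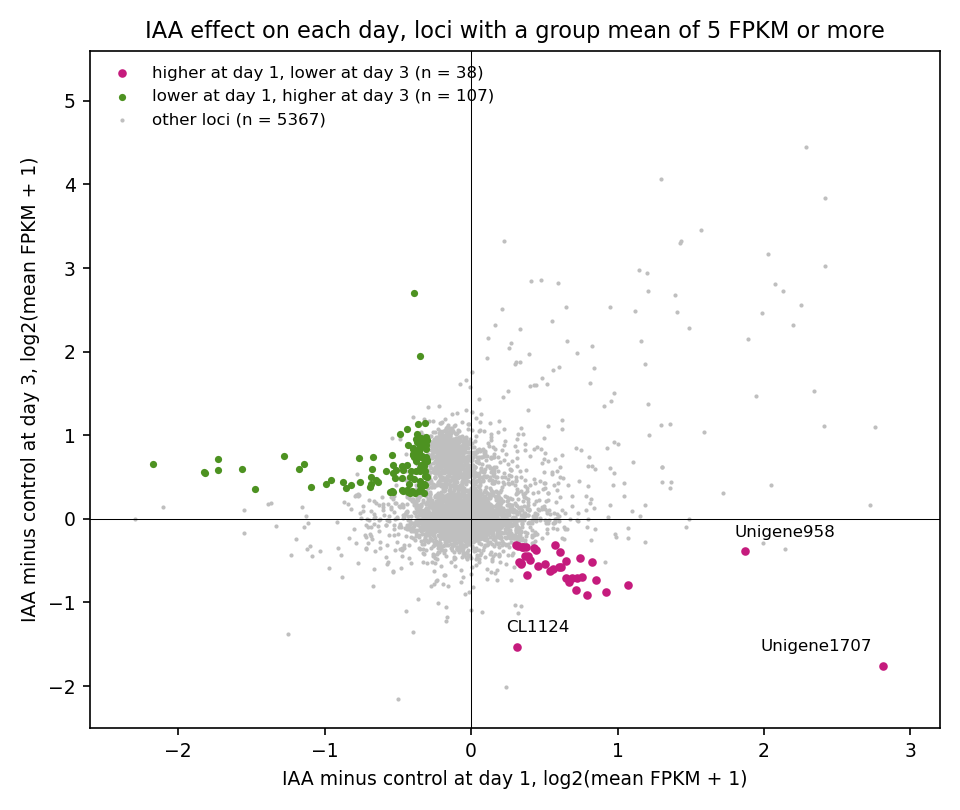
IAA minus control at day 1 (x axis) and at day 3 (y axis), both in log2(mean FPKM + 1), for the 5512 loci with a group mean of 5 FPKM or more. The 38 loci lie at the lower right, the 107 with the reverse course at the upper left, and Unigene1707, Unigene958 and CL1124 stand apart from the rest of the 38.

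Most of the 38 changes were moderate on both days. At day 3 the median IAA minus control was -0.54 on the log2 scale, with a range of -1.76 to -0.31. At day 1 it was 0.56, with a range of 0.30 to 2.81. As ratios of group means, IAA over control had a median of 0.673 at day 3 and 1.51 at day 1. Only 2 loci, Unigene1707_All and CL1124, were at or below -1 on the log2 scale at day 3. At day 1 3 were at or above 1: Unigene1707_All, Unigene958_All and Unigene5974_All. These values chose the loci and are given as description. Over the 5512 loci the medians were 0.01 at day 3 and -0.06 at day 1. The day 3 difference was the larger in size in 19 of the 38 loci and the day 1 difference in the other 19.

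The limits cut through a continuous range. The smallest day 3 change inside was -0.31 and the nearest outside -0.29, among 45 loci that missed this limit alone. The smallest day 1 change inside was 0.303 and the nearest outside 0.283, among 20 such loci. The lowest level inside was 5.22 FPKM and the highest outside 4.69 FPKM, among 6 loci. Overlap of libraries kept out 2 further loci at day 3 alone and 3 at day 1 alone.

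The largest difference between the days was in Unigene1707_All. At day 3 this sequence was at 0, 2.18 and 0 FPKM in IAA libraries, against 2.91, 8.16 and 3.49 FPKM in controls. At day 1 it was at 13.08, 13.2 and 15.83 FPKM in IAA libraries, against 0, 1.24 and 2.19 FPKM in controls. All of the day 1 IAA libraries stood above all others, while the day 3 groups were separated by only 0.73 FPKM. The means were 0.727 ± 1.26 with IAA and 4.85 ± 2.88 FPKM in controls at day 3 (SD, n = 3), and 14.04 ± 1.55 with IAA and 1.14 ± 1.10 FPKM in controls at day 1. IAA minus control was -1.76 at day 3 and 2.81 at day 1 on the log2 scale. It was the only one of the 38 loci listed at 0 in any library.

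Unigene958_All had the next largest difference between the days, with another order of groups. At day 3 it was at 109.86, 123.6 and 109.91 FPKM in IAA libraries, against 147.19, 145.23 and 157.23 FPKM in controls. The day 1 values were 111.06, 113.38 and 116.84 FPKM in IAA libraries, against 27.47, 33.43 and 30.21 FPKM in controls. The IAA libraries of both days were thus close together, with means of 114 ± 7.92 FPKM at day 3 and 114 ± 2.91 FPKM at day 1 (SD, n = 3). The controls were at 149.9 ± 6.44 FPKM at day 3 and 30.4 ± 2.98 FPKM at day 1. IAA over control was 0.764 at day 3 and 3.75 at day 1.

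The most abundant of the 38 loci showed the same course at much smaller size. Unigene3422_All was at 571, 569 and 531 FPKM with IAA and 727, 698 and 693 FPKM in controls at day 3. At day 1 the values were 477, 603 and 573 FPKM with IAA, where the libraries spread most, and 416, 427 and 429 FPKM in controls. Its IAA means were 557 ± 22.5 FPKM at day 3 and 551 ± 66.1 FPKM at day 1 (SD, n = 3).

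Cluster CL2587, the next in abundance, was at 330.3, 336 and 338 FPKM with IAA and 437, 450.3 and 433 FPKM in controls at day 3. The values at day 1 were 496, 499 and 492 FPKM with IAA and 335, 321 and 322 FPKM in controls. In this cluster the day 3 IAA libraries and the day 1 controls were close, at means of 335 ± 4.22 and 326 ± 7.82 FPKM (SD, n = 3).

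**Figure D2:**
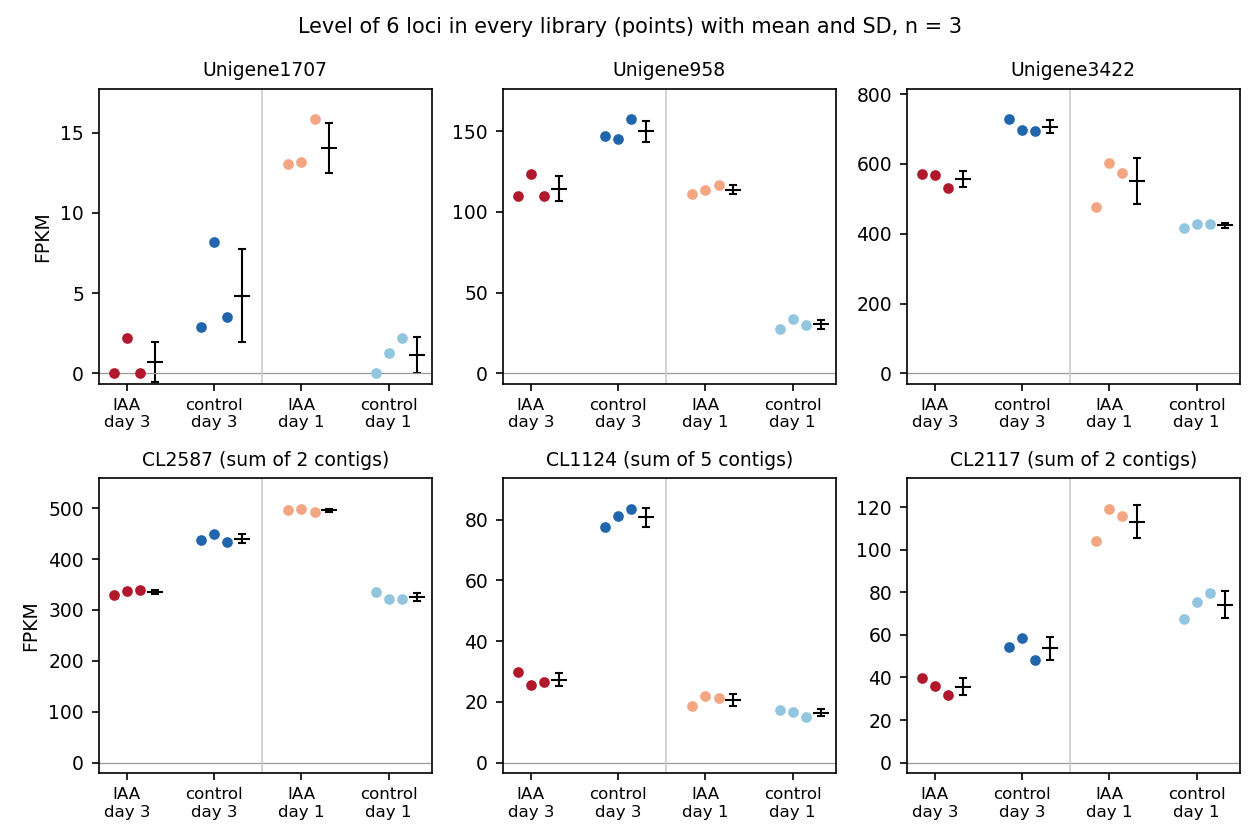
FPKM (y axis, linear) of 6 loci in every library (points), with the mean and SD of each group (n = 3) beside them, in the order day 3 IAA, day 3 control, day 1 IAA, day 1 control. In Unigene958 and Unigene3422 the IAA libraries of both days are level and the controls differ, while in CL2587 and CL2117 the day 1 IAA libraries are the highest.

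Mean level over all libraries ranged from 3.26 to 559 FPKM among the 38 loci, with a median of 21.9 FPKM, against a median of 26.2 FPKM over the 5512 loci. Of the 38, 17 had a mean under 20 FPKM, 10 were at 20 to 100 FPKM and 11 were at 100 FPKM or more. In this order the classes held 44.7%, 26.3% and 28.9% of the 38, against 41.3%, 49.0% and 9.72% of the 5512. The mean coefficient of variation within groups had a median of 5.12% in the 38 and 3.71% in the 5512. Together the 38 loci took 0.988 ± 0.0111% of summed FPKM with IAA and 1.43 ± 0.00753% in controls at day 3 (SD, n = 3). At day 1 they took 1.27 ± 0.0340% with IAA and 0.882 ± 0.0230% in controls. The rule fixes which arm has the higher summed level of the 38 loci on each day, so these shares are description only. The most abundant loci weigh most in them.

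Between the days, the IAA means of the 38 loci were mostly lower or level at day 3 and the control means mostly higher. With IAA the mean was lower at day 3 in 26 loci and higher in 12, and in controls it was lower in 2, CL2117 and Unigene2277_All, and higher in 36. All day 3 IAA libraries lay below all day 1 IAA libraries in 25 of the 38, against 37.0% of the 5512, and above them in 5, against 27.5%. In controls, all day 3 libraries lay below all day 1 libraries in 1 of the 38, against 46.9% of the 5512, and above them in 35, against 25.2%. The median day 3 minus day 1 change was -0.33 with IAA and 0.82 in controls, against -0.03 and -0.07 over the 5512 loci. These counts and medians use the libraries that chose the loci, and a positive gap between the change in controls and the change with IAA is fixed by the choice.

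By these changes the 38 loci fell into 5 kinds. In 17 loci the IAA mean moved by less than 0.3 on the log2 scale, while the controls were higher at day 3 by at least 0.3. The change there was -0.29 to 0.18 with IAA and 0.63 to 2.27 in controls, at mean levels from 3.26 to 559 FPKM. Unigene958_All and Unigene3422_All belong here. A change under 0.3 does not mean that the IAA libraries of the 2 days overlapped. In Unigene5742_All they were lower at day 3, at 193.88, 196.52 and 193.67 FPKM against 237.3, 238.19 and 237.36 FPKM at day 1. In Unigene8323_All they were higher at day 3, at 15.37, 15.46 and 14.66 FPKM against 13.96, 13.5 and 12.25 FPKM. Both were picked as examples after their values were seen. Unigene4231_All, picked as an example after its values were seen, was at 82.5, 83.27 and 84.88 FPKM with IAA and 130.97, 124.75 and 130.58 FPKM in controls at day 3. Its day 1 values were 84.19, 81.18 and 84.04 FPKM with IAA and 56.92, 57.14 and 56.38 FPKM in controls. Its IAA libraries of both days thus lay within one narrow band between the controls of day 3 above and the controls of day 1 below.

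In 13 loci IAA was lower and the controls were higher at day 3, by at least 0.3 each. The change was -3.12 to -0.31 with IAA and 0.30 to 1.45 in controls. Unigene1707_All and CL2587 are of this kind, and mean levels ran from 5.19 to 399 FPKM.

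In 6 loci IAA was lower at day 3, with changes of -1.14 to -0.39, while the controls moved by less than 0.3, between -0.08 and 0.28. The most abundant of them, Unigene7532_All, also picked after its values were seen, was at 276, 282 and 275 FPKM with IAA and 380.1, 385 and 372 FPKM in controls at day 3. Those of day 1 were 431, 449 and 444 FPKM with IAA and 326, 347 and 353 FPKM in controls. The high libraries in this locus were those of day 1 IAA and the low ones those of day 3 IAA, with both groups of controls between them.

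The remaining kinds held 1 locus each. In CL1124 both arms were higher at day 3, by 0.39 with IAA and 2.23 in controls. In CL2117 both were lower, with changes of -1.64 with IAA and -0.46 in controls. Across all 38, the highest mean was that of the day 1 IAA libraries in 15 loci and that of the day 3 controls in 23. The lowest was that of the day 3 IAA libraries in 12 and that of the day 1 controls in 26. The choice allows no other group to be highest or lowest.

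**Figure D3:**
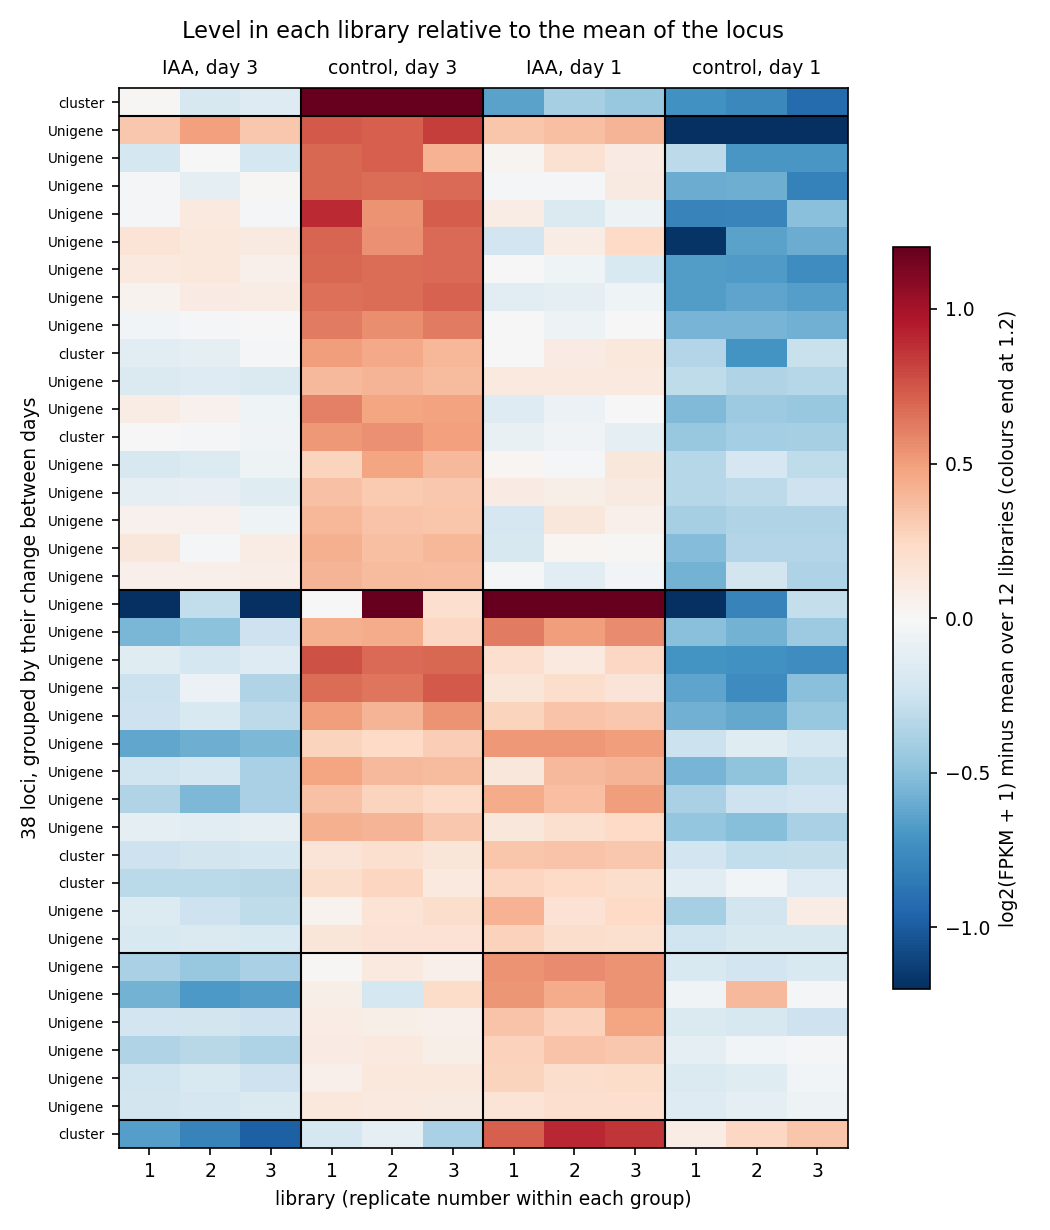
Each row is 1 of the 38 loci and each column 1 library, coloured by log2(FPKM + 1) minus the mean of the locus over the 12 libraries (colours end at 1.2 in either direction). Lines separate, from the top, the 1, 17, 13, 6 and 1 loci grouped by their change between days. In the 17 loci the IAA libraries of both days stay near the middle of the scale, and in the 6 loci below the 13 the day 1 IAA libraries are the highest.

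**Figure D4:**
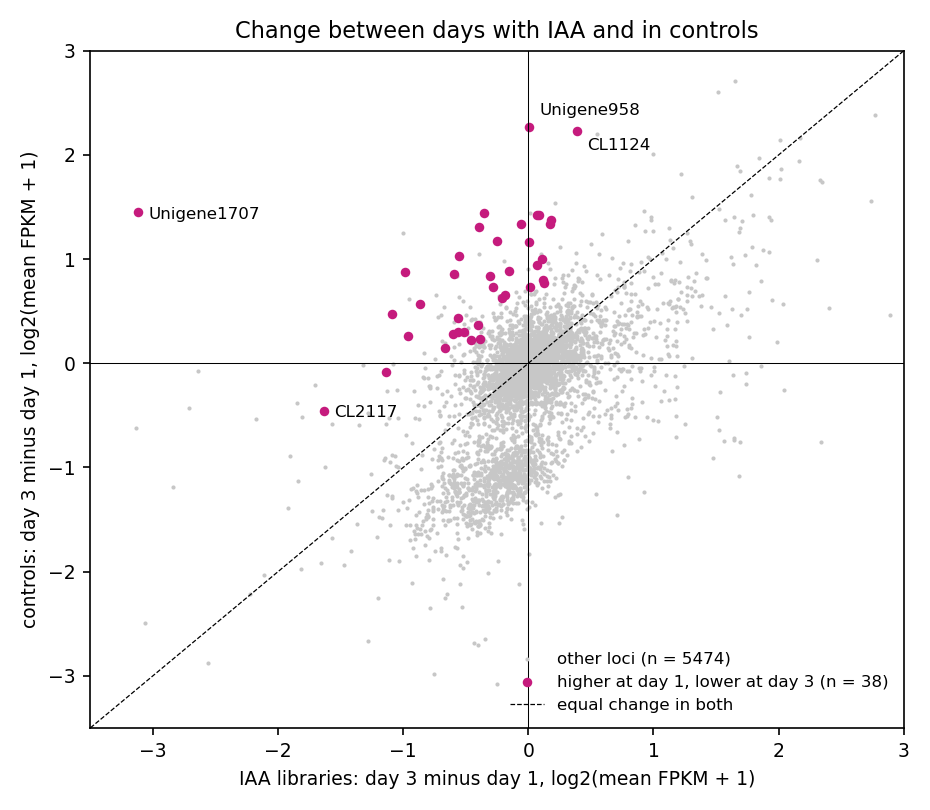
Day 3 minus day 1 in log2(mean FPKM + 1) for IAA libraries (x axis) and controls (y axis), for the 38 loci and the 5474 others at 5 FPKM or more, of which 3 lie outside the axes. All 38 lie above the dashed line of equal change, which the choice fixes, and 36 lie above 0 on the axis of the controls.

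Of the 38 loci, 6 were clusters and 32 Unigenes. Clusters made up 15.8% of the 38 and 30.2% of the 5512. The 6 clusters held 14 contigs. By sign alone, the group means of 10 contigs had both directions of the rule, and 8 contigs reached the size of 0.3 on both days. The other 2, named for their small number, were contig 2 of CL1807 and contig 3 of CL1019, which was at 0 in 9 libraries and at 0.30 FPKM or less in the other 3. CL1124, with 5 contigs, was the largest. Its sum was at 29.83, 25.73 and 26.41 FPKM with IAA and 77.55, 81.13 and 83.64 FPKM in controls at day 3. At day 1 it was at 18.49, 22.08 and 21.29 FPKM with IAA and 17.4, 16.8 and 15.07 FPKM in controls. The gap between the groups was 47.7 FPKM at day 3 and 1.09 FPKM at day 1, so the day 1 part of its choice was narrow.

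Within CL1124, contigs 3 and 4 carried the course of the sum. Contig 4 was at 8.12 ± 0.716 FPKM with IAA and 28.5 ± 1.22 FPKM in controls at day 3 (SD, n = 3), against day 1 levels of 7.09 ± 0.668 FPKM with IAA and 3.60 ± 1.60 FPKM in controls. Contig 1 shared the day 3 difference, with 6.18 ± 2.61 FPKM with IAA and 22.98 ± 2.74 FPKM in controls. At day 1 it was at 3.03 ± 1.25 FPKM with IAA and 3.30 ± 1.68 FPKM in controls, which overlapped. Contigs 2 and 5 had neither direction of the rule.

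Both contigs of CL2117 followed the sum, with IAA minus control of -0.54 and -0.57 at day 3 and 0.55 and 0.62 at day 1 on the log2 scale. The sum was at 35.7 ± 3.96 FPKM with IAA and 53.8 ± 5.35 FPKM in controls at day 3 (SD, n = 3). The day 1 sums were 113 ± 7.82 FPKM with IAA and 74.3 ± 6.31 FPKM in controls. In CL2587 1 contig made up 98.9% of the cluster and set its values.

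The course was then read in 3 rounds, each in libraries that had no part in choosing the loci of that round. These came from the same 4 groups and may be technical replicates, so agreement covers repeat libraries only. The same rule was applied to 2 libraries per group, and IAA minus control was taken in the library left out of each group. Without the libraries numbered 1, the rule chose 46 loci, and 38 of them (82.6%) kept both directions in the left-out libraries, against 18.0% of all loci at 5 FPKM or more. Without those numbered 2, it chose 42 loci, of which 40 (95.2%) kept both, against 16.5%. Without those numbered 3, it chose 47 loci, of which 38 (80.9%) kept both, against 15.6%. Median IAA minus control in the left-out libraries was -0.52, -0.51 and -0.46 at day 3, and 0.48, 0.49 and 0.53 at day 1. In the libraries that chose them the medians were -0.51, -0.52 and -0.54 at day 3, and 0.53, 0.52 and 0.58 at day 1. Of the 38 loci, 31 were chosen in all 3 rounds. In the order of the rounds, 34, 35 and 35 of the chosen loci were among the 38. The 38 were chosen on all 12 libraries, so the rule fixes their directions in any left-out library. The rounds therefore describe how the rule carries over to a further library and are no independent evidence for the 38. The size of 0.3 was reached on both days in the left-out libraries in 31, 28 and 30 loci.

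**Figure D5:**
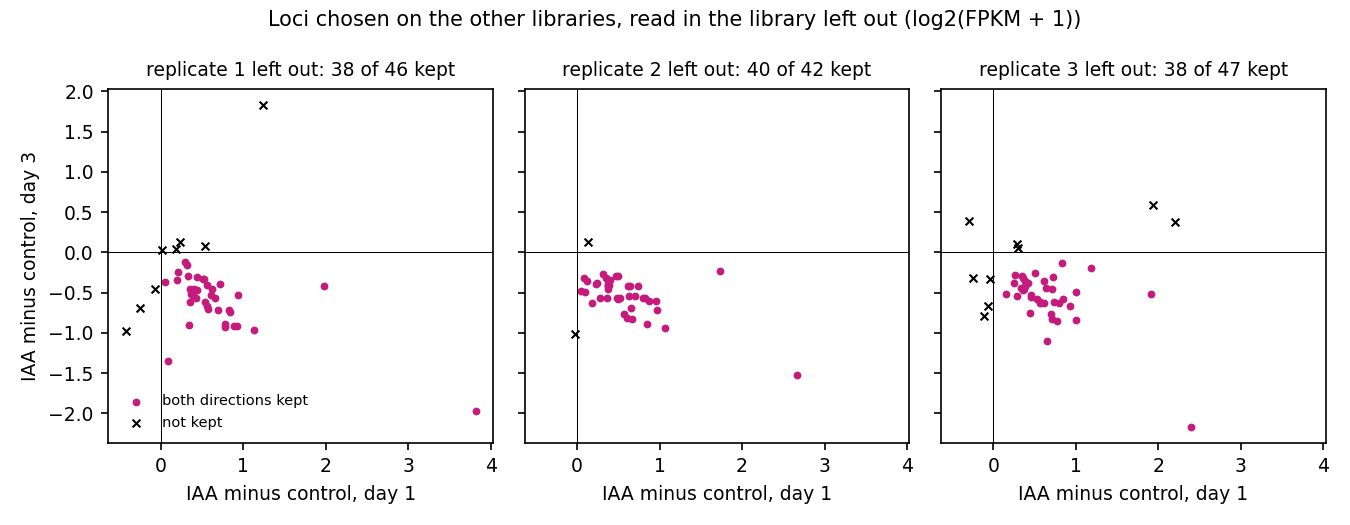
IAA minus control in log2(FPKM + 1) at day 1 (x axis) and day 3 (y axis), read in the 1 library per group left out of the choice, for the 46, 42 and 47 loci chosen on the other libraries. Filled points kept both directions (38, 40 and 38 loci) and crosses did not.

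The rule used every comparison of IAA with control, but not the level of a day averaged over both arms. That contrast, day 3 minus day 1 over IAA and control together, was tested by limma with Benjamini-Hochberg adjustment over 11042 loci. It is uncorrelated with both contrasts of the rule when libraries vary alike, although the demands on level and overlap can still favour loci with a small spread. The demand on level also favours a direction in low loci. Of the 38, 3 reached 5 FPKM at day 3 only (Unigene5968_All, Unigene2660_All and Unigene5901_All, named for their small number), and all 3 are among those called higher at day 3. Unigene1707_All alone reached it at day 1 only and is among those called lower. All 38 loci passed the filter of a mean of at least 1 FPKM. A call gives the direction of the average and not of each arm. The arms moved in opposite directions, by at least 0.3 each, in 13 of the 38. In 17 only the controls moved that far, and in 6 only the IAA libraries. At an adjusted p under 0.05, 22 of the 38 (57.9%) were higher at day 3, against 15.5% of the loci tested, and 12 (31.6%) were lower, against 54.7%. The other 4 did not pass, with changes between -0.10 and 0.13 (limma adjusted p 0.0601 to 0.379). They were Unigene8365_All, Unigene1119_All, Unigene5974_All and Unigene1166_All, which, like Unigene2277_All, fall outside the naming rule and are named for their small number. When loci had to average 5 FPKM or more across the 12 libraries, 36 of the 38 were tested, and 20 (55.6%) were higher and 12 (33.3%) lower, against 27.8% and 44.4% of 5052 loci. The median change was 0.24 in the 38, against -0.22 over the 11042. Among the 5512 loci of the same level, 26.8% were higher and 46.5% lower (median -0.05). Of the 107 loci with the reverse course, 31 were higher and 64 lower (median -0.46).

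This split also depended on scaling. As deposited, 22.0% of all calls were higher at day 3. With median-of-ratios size factors, which moved the median of all loci by 0.26, the share was 64.0%, and 32 of the 38 loci were higher and 2 lower. After quantile normalization, which moved it by 0.19, the share was 47.3%, and 23 of the 38 were higher and 9 lower.

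The largest rises of the day average were in CL1124, by 1.31 ± 0.05 on the log2 scale (SE, limma adjusted p = 9.023e-10), and in Unigene958_All, by 1.14 ± 0.04 (limma adjusted p = 1.003e-09). Averaged over arms, these were at 54.05 FPKM at day 3 and 18.5 FPKM at day 1 for CL1124, and at 132 and 72.1 FPKM for Unigene958_All. The rise of CL1124 rested mainly on the day 3 controls, as its per-library values above show. The day average of Unigene3422_All was higher by 0.38 ± 0.05 (limma adjusted p = 2.528e-05). In Unigene958_All the change was 0.009 with IAA and 2.27 in controls, and in Unigene3422_All 0.015 and 0.73. The higher day averages of these loci thus came from the controls.

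The largest falls of the day average were in CL2117, at -1.05 ± 0.06 on the log2 scale (SE, limma adjusted p = 5.001e-08), and in Unigene1707_All. The latter was at -0.93 ± 0.35 (limma adjusted p = 0.03233), from opposite changes of -3.12 with IAA and 1.45 in controls. Unigene1707_All met the demand on level through the day 1 IAA libraries alone, which favours a fall, so its call is no independent evidence of one. The call for Unigene1707_All did not survive the removal of any one of 7 libraries, with limma adjusted p between 0.0618 and 0.0786. These were replicate 3 of day 1 IAA, replicates 1 and 3 of day 3 IAA, replicates 2 and 3 of the day 1 controls and replicates 1 and 3 of the day 3 controls. Over all alternatives its limma adjusted p ranged from 0.00408 to 0.155. The day average of CL2587 was lower by 0.07 ± 0.02 at day 3 (limma adjusted p = 0.003388), from opposite changes of -0.56 with IAA and 0.43 in controls. Under median-of-ratios size factors the direction of its day average turned, to 0.28 higher at day 3.

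The authors' deposited tables of changed sequences hold no log2 ratio below 1 in size. Among the 32 Unigenes, the authors' deposited table for day 3 lists 1 as lower with IAA, Unigene1707_All, at a log2 ratio of -2.74. It lists 362 of the 30780 sequences (1.18%) as lower. For day 1 the authors' deposited table lists 3 of the 32 as higher. They are Unigene1707_All at 3.62, Unigene958_All at 1.91 and Unigene5974_All at 1.20. It lists 421 sequences (1.37%) as higher. Of the contigs of CL1124, contigs 1, 3 and 4 are listed as lower at day 3 in the authors' deposited table, with log2 ratios between -1.90 and -1.81. Contig 2 is listed the other way round on both days, at 7.60 at day 3 and -7.90 at day 1 in the authors' deposited table. This contig was at 0 in 10 of the 12 libraries, with 2.29 FPKM in 1 day 3 IAA library and 2.81 FPKM in 1 day 1 control, so its listing rests on 1 library at each day.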

How the data were processed

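Per the labels' protocols, RNA was extracted from tissue ground in liquid nitrogen and libraries were made by standard Illumina procedures. Bowtie2 2.2.5 is named in the submitters' processing notes without its role. The sources used here do not name the assembler, the quantifier or any filter. The authors deposited FPKM values for 30780 sequences in 12 libraries, per the file headers. The authors also deposited a table for each day that holds log2 ratios (IAA over control), q-values and p-values of a test they do not name, per the file headers.

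Contigs were summed per cluster, and the rule for the 38 loci was applied to the FPKM values as deposited. The day contrast was fitted to log2(FPKM + 1) in limma 3.58.1 (R 4.3.3) with 4 group means, all 12 libraries, an abundance trend in the variance prior and two-sided tests, for loci with a mean of at least 1 FPKM. Fold changes on this scale understate the change of low loci. No count test was run, since whole reads could not be recovered: 72.5% of 10904 low Unigene values lay within 0.1 of a whole multiple of 1 read. The scripts were tested on simulated data. Alternatives covered scaling, pseudocount, limits, contig sums, the variance prior, a replicate block and leaving out each library.

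The loci, lists and tests were chosen with earlier results of these data known. Named loci were the 2 with the largest difference between the days' IAA effects, the 2 most abundant, the 2 largest day-averaged changes in each direction among those called, the 2 largest rises in controls and falls with IAA, and the cluster with most contigs.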

Additional observations from a re-analysis of the deposited data

Results flagged for a closer look

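In 38 loci every IAA library lay above every control at day 1 and below every control at day 3, so that the IAA effect had opposite directions on the 2 days. The rule that chose these loci requires this, and the difference between the days was not tested.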

How the results depend on the processing

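The number of loci with this course was 38 as deposited, 194 with median-of-ratios size factors, 69 after quantile normalization, 77 at a size of at least 0.2, 18 at a size of at least 0.5 and 25 at a highest group mean of at least 20 FPKM. Leaving out 1 library gave 36 to 43 loci. In the left-out libraries, 116 of 135 choices kept both directions, against 605 of 655 with median-of-ratios size factors and 242 of 288 after quantile normalization. In the day average, 1706 loci were higher and 6041 lower. With median-of-ratios size factors 4545 were higher and 2561 lower, and 2774 were lower after quantile normalization and 2243 with a mean of at least 5 FPKM, where fewer loci were tested. Leaving out 1 library gave 1617 to 1691 higher and 5597 to 6017 lower, and 22 to 23 of the 38 loci higher and 11 to 13 lower. Of the 38, 2 were lower with median-of-ratios size factors. CL2587 reversed there, to 0.2843. The call for Unigene1707_All was also lost under 6 other settings. The cause of these differences was not tested. Replicate numbers showed no pairing of the libraries. Deviations of log2(FPKM + 1) from the group mean had correlations of -0.0518 to 0.0482 between same-numbered libraries, over 18 pairs. With the replicate block 1685 loci were higher and 5994 lower, and 22 and 12 of the 38. Absolute depth is unknown, which limits loci of a few FPKM most.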

Other observations

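The numbers inside the IDs of the 32 Unigenes were not spread evenly. IDs numbered 5001 to 6000 held 11 of the 32 (34.4%), against 459 of the 3849 Unigenes at 5 FPKM or more (11.9%). The same window held 39 of the 263 Unigenes that met the day 1 limits (14.8%), 29 of the 175 that met the day 3 limits (16.6%) and 16 of the 99 with the reverse course (16.2%). The highest number among the 32 was 8425. Over all 23287 Unigenes it was 32461, but only 3849 of these reached 5 FPKM, so these numbers are not like for like. The window was chosen after the IDs were seen, no test was run, and no source used here says what the numbers stand for.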
